A study of Mus musculus with 8 samples.

Results

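The colony-stimulating factor receptors of myeloid cells were followed in sorted mouse bone marrow cells that lacked E2f1 alone or in which E2f2 and E2f3 were targeted as well. The group comprised 8 genes: the ligand gene Csf1 and the receptor genes Csf1r, Csf2ra, Csf2rb, Csf2rb2, Csf3r, Il3ra and Il6ra. They were chosen by name, and every probe set annotated to one of them was read, 17 in all, of which 16 belonged to 1 gene and 1 was shared by Csf2rb and Csf2rb2. The array measured 18193 genes by 45037 probe sets. All 17 probe sets were tested, and no filter on low values was applied.

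Cells carrying the integrin subunit Cd11b were sorted by FACS from the bone marrow. The mice were 8 weeks old and of mixed FVB and C57BL6 descent. The 4 control samples had the genotype E2F1-/-2+/+3f/f, that is, no E2f1, intact E2f2 and floxed E2f3 without a Cre transgene. The 4 experimental samples were Mxcre;E2F1-/-2-/-3f/f, without E2f1 and E2f2 and with floxed E2f3 and the Mx-Cre transgene, whose promoter answers to interferon. Loss of E2f1 was thus shared by all samples, and so was the treatment: every mouse was injected 5 times with 250 µg pIpC, a synthetic RNA duplex that induces interferon, and killed 24 h after the last dose. Cre was present in every experimental sample and in no control, so Cre itself and the E2f alleles cannot be told apart. Separate animals are not named for the samples of a group, and the p-values cover only the variation among the arrays at hand, some of which may be technical.

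Colony-stimulating factors direct the growth, survival and maturation of myeloid cells. Csf1 binds the receptor tyrosine kinase Csf1r, which marks the monocyte and macrophage lineage, whereas G-CSF binds Csf3r, a single-chain receptor of the granulocyte lineage. GM-CSF and interleukin 3 each use an alpha chain of their own, Csf2ra or Il3ra, joined to the common beta chain Csf2rb, and mice carry a further beta chain, Csf2rb2, that serves interleukin 3. Il6ra pairs with the signalling subunit Il6st. The chains of the cytokine receptors have no kinase of their own and signal through JAK kinases and STAT factors.

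Of the 8 genes, 1 rose and 2 fell in the experimental samples at their brightest probe set. Csf2rb2 was 2.84-fold higher, while Csf3r stood at 63.8% and Csf1 at 58.8% of the control level. At adjusted p 0.05 in limma's fit, with Benjamini-Hochberg adjustment over all probe sets, 3 of the 17 probe sets were past the threshold, against 2.58% of all 45037. Values are log2 expression per probe set, so a difference of 1 is a doubling, and differences are experimental minus control with the moderated SE of that fit and 4 arrays per group. The median difference of the 17 probe sets was -0.08, and that of all probe sets was 0.00. In 4 of the 17 the groups did not overlap, against 10.8% of all probe sets: 3 lay lower, against 6.15%, and 1 higher, against 4.64%.

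**Figure D1:**
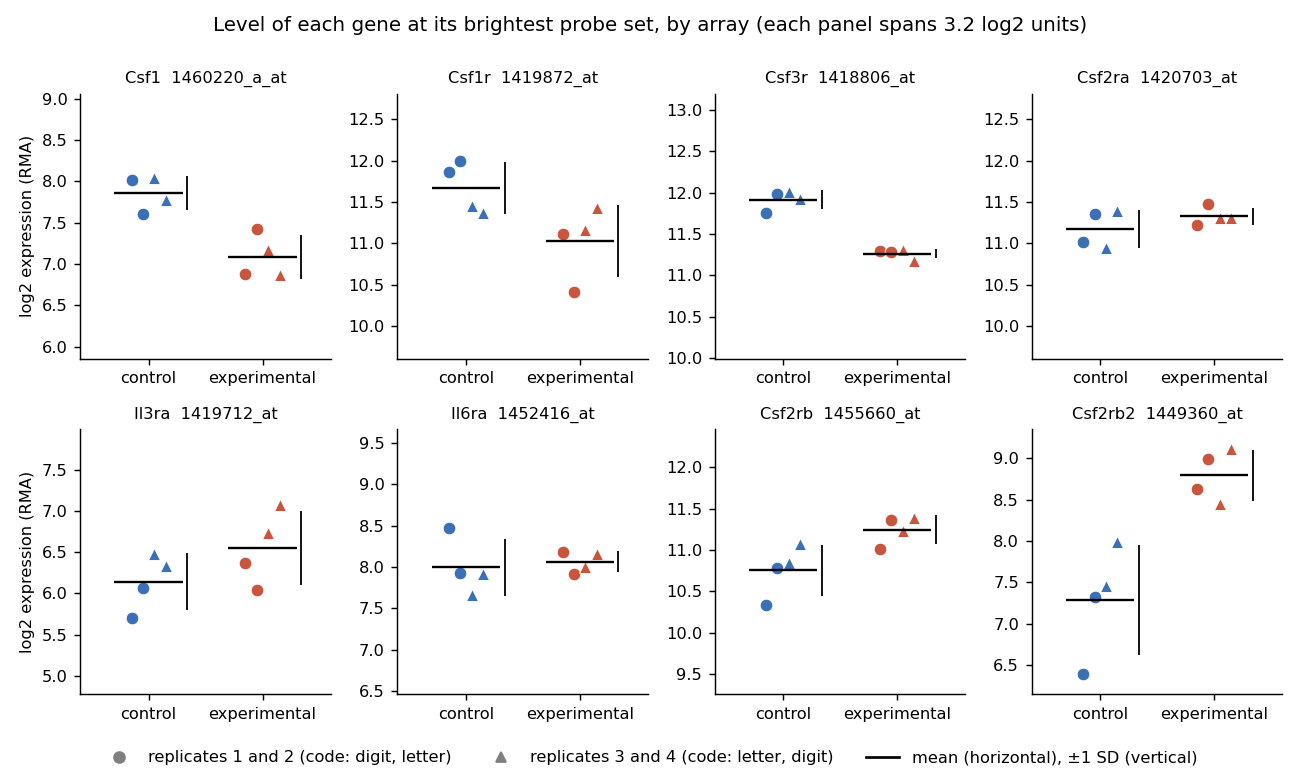
Log2 expression in each array for the brightest probe set of each of the 8 genes, with circles for replicates 1 and 2 and triangles for replicates 3 and 4, horizontal lines at group means and vertical lines of 1 SD to each side. The experimental arrays of Csf1 and Csf3r lie below all controls, those of Csf2rb2 lie above all controls, and the other genes overlap.

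The upstream sequences of the 3 genes that passed are shown because their levels differed between genotypes of a transcription factor family. They are the 250 bases before the start site in RefSeq's annotation of GRCm38.p6, written 5′ to 3′ on the gene's strand: chr3:107760470-107760719 on the minus strand for Csf1, chr4:126024409-126024658 on the plus strand for Csf3r and chr15:78305722-78305971 on the minus strand for Csf2rb2. Capitals mark matches to the motifs described after them.
Csf1: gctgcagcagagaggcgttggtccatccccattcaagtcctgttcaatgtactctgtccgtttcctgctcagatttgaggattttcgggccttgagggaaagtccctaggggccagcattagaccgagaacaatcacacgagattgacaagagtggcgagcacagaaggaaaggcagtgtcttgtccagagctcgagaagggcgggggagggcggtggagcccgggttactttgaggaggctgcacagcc
Csf3r: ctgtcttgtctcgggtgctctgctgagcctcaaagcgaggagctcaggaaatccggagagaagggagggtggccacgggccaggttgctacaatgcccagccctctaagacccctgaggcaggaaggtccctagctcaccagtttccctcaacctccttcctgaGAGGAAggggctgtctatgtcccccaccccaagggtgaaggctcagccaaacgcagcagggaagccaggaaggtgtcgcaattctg
Csf2rb2: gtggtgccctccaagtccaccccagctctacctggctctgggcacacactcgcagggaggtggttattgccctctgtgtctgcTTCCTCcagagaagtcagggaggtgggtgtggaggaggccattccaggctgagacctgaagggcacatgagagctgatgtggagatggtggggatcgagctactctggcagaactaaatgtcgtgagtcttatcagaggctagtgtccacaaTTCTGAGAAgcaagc
The windows of 6 of the 8 genes were searched, those above and those of Csf2ra, Il3ra and Il6ra. Csf1r was left out of the search along with its chromosome, 18, and no window was at hand for Csf2rb. The search covered either strand for 4 patterns: the E2F words TTTCCCGC, TTTGGCGC, TTTGCCGC and TTTCGCGC, the PU.1 core GAGGAA, the C/EBP pattern TTNNGCAA and the STAT pattern TTCNNNGAA. The E2F words were in none of the 6 windows and in 1.86% of 32851 promoter windows of the same length. GAGGAA was present in Csf3r (bases -86 to -81 from the start site) and, on the opposite strand, in Csf2rb2 (-167 to -162), as well as in Csf2ra and Il6ra, and in 23.3% of all windows. The STAT pattern was present in Csf2rb2 (-15 to -7) and in 7.02% of all windows, and the C/EBP pattern in Il3ra and in 9.56%. The window of Csf1 held none of the 4 patterns. These matches describe letters in a window and say nothing of binding.

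Csf1, the macrophage growth factor and the only ligand among the 8 genes, fell at 1 of its 4 probe sets. At 1460220_a_at the control arrays read 8.01, 7.60, 8.04 and 7.77 in replicates 1 to 4, and the experimental arrays read 6.88, 7.42, 7.17 and 6.87. Every experimental array lay below every control. The difference was -0.77 ± 0.15 (SE, n = 4 per group; adjusted p = 0.0326 in limma), and 1.55% of all probe sets were called lower. Probe set 1448914_a_at read 6.20, 5.89, 6.35 and 6.03 in controls and 5.33, 5.78, 5.89 and 5.45 in experimental arrays. Those groups did not overlap by a narrow margin, and the difference of -0.51 ± 0.15 did not pass (adjusted p = 0.119). At 1425154_a_at, with control arrays from 7.17 to 7.41 and experimental arrays from 7.12 to 7.40, the difference was 0.00 (95% confidence interval -0.23 to 0.23). At the dim 1425155_x_at, below the array median, it was -0.22 ± 0.11 (adjusted p = 0.347).

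The Csf1 probe sets thus disagreed. They were split by the sequence they were designed from only after their values were seen, so the p-value of the split adds no support to it. The pair designed from one transcript record (1448914_a_at and 1460220_a_at) fell by 0.53 on the log2 scale against the pair designed from another (1425154_a_at and 1425155_x_at), with an SD of 0.17 in controls and 0.32 in experimental arrays. All 4 experimental arrays lay below all 4 controls in this comparison (two-sided exact permutation p = 0.0286, the smallest that 4 against 4 arrays allow, and adjusted p = 0.0286 over 3 such comparisons, chosen after the values were seen). With the mean of the 4 probe sets Csf1 did not pass (-0.37, adjusted p = 0.0646). Among the fits that left out 1 array, 1460220_a_at passed only without experimental replicate 2, with adjusted p = 0.0167 to 0.0976 over all alternatives. Beta-actin probe sets at the 3′ and 5′ end of the transcript, which report on RNA integrity, also separated the groups, with log2 differences (3′ minus 5′) of 0.27 to 0.32 in controls and 0.34 to 0.54 in experimental arrays, while those of Gapdh overlapped. The part of RNA integrity in the difference between probe sets, or in any other difference between the groups such as those of Csf3r and Csf2rb2, was not tested.

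Csf1r, the receptor for Csf1, was lower on average at all 3 of its probe sets, but none passed. At 1419872_at the controls read 11.86, 12.00, 11.45 and 11.36, and the experimental arrays read 11.11, 10.41, 11.16 and 11.43. Experimental replicate 4 lay inside the control range, and experimental replicate 2 was the lowest array. The difference was -0.64 ± 0.22 (adjusted p = 0.178). It was -0.67 ± 0.27 at 1419873_s_at (adjusted p = 0.248) and -0.58 ± 0.26 at 1423593_a_at (adjusted p = 0.296). Without experimental replicate 2 the differences shrank to -0.43, -0.38 and -0.34, and still did not pass.

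The difference in Csf1r was larger in replicates 1 and 2 than in replicates 3 and 4, though not past the threshold of its test. Sample codes in the labels come in 2 styles, a digit before a letter for replicates 1 and 2 of each group and a letter before a digit for replicates 3 and 4. Within replicates 1 and 2 the Csf1r probe sets differed by -1.17, -1.25 and -1.16, and within replicates 3 and 4 by -0.10, -0.09 and -0.01. The test of this difference (interaction of group and code style in limma) gave 1.15 ± 0.24 for 1423593_a_at, with unadjusted p = 0.00126 and adjusted p = 0.345. None of the 17 probe sets passed that test, against 0.0111% of all probe sets. An unadjusted p under 0.05 was seen for 3, all of the single gene Csf1r, and no share of all probe sets is given for that threshold. Monocyte markers showed a like split: their mean level was 10.03 to 10.32 in controls, 9.46 and 8.94 in experimental replicates 1 and 2, and 10.43 and 10.45 in experimental replicates 3 and 4. None of the 8 measured monocyte markers passed, and their part in the Csf1r values was not tested. In sorted bulk samples fewer cells of a type and less RNA per cell cannot be told apart.

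**Figure D2:**
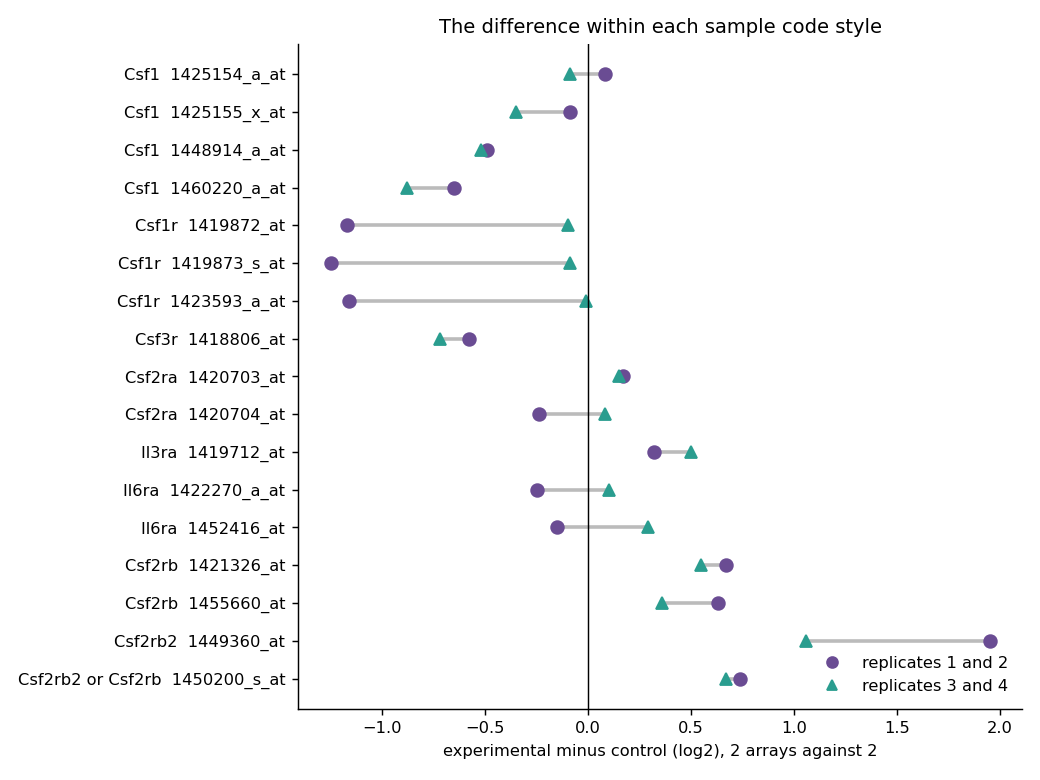
Difference of the group means (experimental minus control, log2) at each of the 17 probe sets within replicates 1 and 2 (circles) and within replicates 3 and 4 (triangles), 2 arrays against 2. The Csf1r probe sets differ by -1.16 to -1.25 in the former and by -0.01 to -0.10 in the latter, whereas Csf3r and the beta chains keep their direction in both.

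Csf3r, the G-CSF receptor that drives granulocyte production, fell with little spread. Its probe set 1418806_at read 11.75, 11.98, 12.01 and 11.92 in controls and 11.29, 11.28, 11.31 and 11.18 in experimental arrays. The experimental arrays lay close together and below every control. The difference was -0.65 ± 0.09 (SE, n = 4 per group; adjusted p = 0.00943 in limma; 95% confidence interval -0.85 to -0.45). The pairs of code styles gave -0.58 (replicates 1 and 2) and -0.72 (replicates 3 and 4). Csf3r passed in each of 18 alternative fits, among them all 8 that left out 1 array (adjusted p = 0.00595 to 0.0365).

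Of 7 measured markers of mature neutrophils, the cells richest in Csf3r, 1 fell and none rose. Their mean level over 7 measured genes was 12.59 to 12.73 in controls and 12.12 to 12.37 in experimental arrays, without overlap (difference -0.40, with p = 0.0286 by an exact two-sided permutation test and 0.0714 once adjusted for 10 marker lists). The marker that fell was Clec4d (-1.71 ± 0.15, adjusted p = 0.00176), which had by far the largest difference of the 7. S100a8 (-0.08), S100a9 (-0.06), Cxcr2 (-0.43), Mmp8 (-0.20), Mmp9 (-0.18) and Il1r2 (-0.13) did not pass. S100a8 and S100a9 lay near the highest values of the arrays. The mean of the precursor markers, by contrast, was 12.47 to 13.11 in controls and 12.92 to 13.22 in experimental arrays, which overlapped. The part of these cell types in the level of Csf3r was not tested.

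Csf3r is also encoded on the chromosome of E2f2, the gene that is null in the experimental group, with 172 measured genes between them in the RefSeq annotation of GRCm38.p6. Of the 174 measured genes from Csf3r to E2f2, both included, 7 rose and 9 fell, or 9.20%, against 3.47% of all 18193 genes. The part of that chromosome stretch in the Csf3r result was not tested.

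Differences in the alpha chains Csf2ra and Il6ra did not pass and were small beside their spread. Csf2ra, which binds GM-CSF, read 11.02, 11.35, 10.94 and 11.39 in controls and 11.22, 11.47, 11.31 and 11.31 in experimental arrays at 1420703_at. The experimental arrays lay in the upper part of the control range, with 1 above it. The difference was 0.16, with a 95% confidence interval from -0.12 to 0.43. Its other probe set, 1420704_at, differed by -0.08 ± 0.11, the opposite sign. Il6ra, which binds interleukin 6, read 8.47, 7.93, 7.66 and 7.92 in controls and 8.18, 7.92, 8.00 and 8.16 in experimental arrays at 1452416_at, a difference of 0.07 (-0.29 to 0.43). The experimental arrays lay within the control range there, and 1422270_a_at gave -0.08 (-0.38 to 0.22).

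Il3ra, which binds interleukin 3, was higher on average but overlapped. Its probe set 1419712_at read 5.70, 6.07, 6.48 and 6.33 in controls and 6.37, 6.04, 6.73 and 7.07 in experimental arrays. Replicates 3 and 4 were above replicates 1 and 2 in either group, by 0.61 ± 0.13 between the code styles (adjusted p = 0.0507). The difference between genotypes was 0.41 ± 0.23 (adjusted p = 0.418; 95% confidence interval -0.11 to 0.93), at 0.32 and 0.50 within the code styles.

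Of the beta chains, Csf2rb2 rose, while Csf2rb and the probe set shared by both did not pass and overlapped between the groups. Csf2rb2, the interleukin 3 beta chain, read 6.39, 7.32, 7.46 and 7.99 in controls and 8.63, 8.99, 8.45 and 9.11 in experimental arrays at 1449360_at. The groups did not overlap, although the controls spread over more than the experimental arrays (SD 0.67 and 0.31). The difference was 1.50 ± 0.30 (SE, n = 4 per group; adjusted p = 0.0326 in limma; 95% confidence interval 0.84 to 2.17), and 1.03% of all probe sets were called higher. Replicates 1 and 2 gave 1.95, and replicates 3 and 4 gave 1.06. The call was lost with array weights, with inferred sex as a block and in 4 of the 8 fits that left out 1 array (control replicate 2, control replicate 3, experimental replicate 1, experimental replicate 4), at 1.20 to 1.74 and adjusted p = 0.0101 to 0.0935 over 18 alternatives. Control replicate 1 was the lowest array, and without it the difference was 1.20 (adjusted p = 0.0391).

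Csf2rb, the beta chain common to the GM-CSF, interleukin 3 and interleukin 5 receptors, was higher on average at both of its probe sets without passing. At 1455660_at the controls read 10.33, 10.78, 10.84 and 11.07 and the experimental arrays 11.01, 11.36, 11.23 and 11.39. Control replicate 4 lay above experimental replicate 1, the sole overlap. The difference was 0.49 ± 0.16 (adjusted p = 0.144). At 1421326_at, with controls of 9.11, 9.68, 9.86 and 10.16 and experimental arrays of 9.85, 10.28, 10.52 and 10.61, it was 0.61 ± 0.23 (adjusted p = 0.212). The shared probe set 1450200_s_at, which cannot tell the beta chains apart, gave 0.71 ± 0.21 (adjusted p = 0.112).

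The 4 probe sets of the beta chains ranked the controls alike, with replicate 1 lowest and replicate 4 highest in each. Same-numbered control and experimental samples deviated together, but so did other numbers of the same code style. With replicate number as a block Csf2rb passed at 1455660_at (adjusted p = 0.0360) and 1421326_at (0.0165), as did the shared probe set (0.00964). In that fit 6 of the 17 probe sets passed (4 higher and 2 lower), against 5.06% of all probe sets (2.22% higher and 2.84% lower). With code style as a block 5 of the 17 passed, against 5.73%, and with inferred sex as a block 2 passed, against 1.47%. Over the alternatives adjusted p lay between 0.0360 and 0.281 for 1455660_at, 0.0165 and 0.395 for 1421326_at, and 0.00964 and 0.242 for the shared one. All 4 numbered pairs of samples differed upward at each of the 4 probe sets.

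Csf2rb2 rose against Csf2rb within the arrays. Relative to the control mean of their log2 difference, the gap between 1449360_at and 1455660_at was -0.48, 0.01, 0.09 and 0.38 in controls and 1.09, 1.09, 0.68 and 1.18 in experimental arrays. Every experimental array lay above every control, with a mean of 1.01 ± 0.22 (SD, n = 4; two-sided exact permutation p = 0.0286, adjusted p = 0.0286). Against 1421326_at the mean was 0.89 ± 0.39 (SD, n = 4; exact permutation p = 0.0286, adjusted p = 0.0286). Both comparisons were chosen after the values were seen, and 0.0286 is the smallest p that 4 against 4 arrays allow. These p-values therefore add no support to the rise. The genes are close paralogs that lie next to each other among measured genes, so cross-hybridisation between them cannot be told apart from their own signal.

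**Figure D3:**
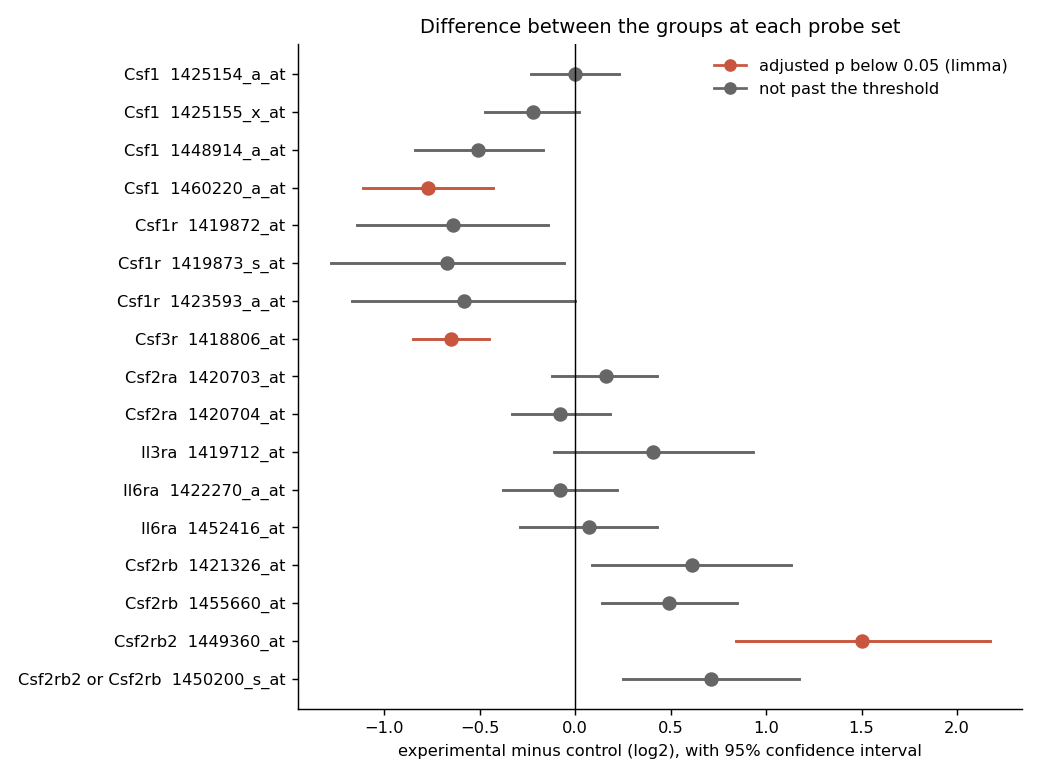
Experimental minus control on the log2 scale at the 17 probe sets, with 95% confidence intervals from the limma fit and those past adjusted p 0.05 in red. Csf1 (1460220_a_at) and Csf3r lie below 0 at -0.77 and -0.65, Csf2rb2 lies at 1.50, and the alpha chains span 0.

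Other genes of the pathways, from 7 lists with 107 genes measured, had 1 that rose and 5 that fell, or 5.61%, against 3.47% of all genes (1.53% higher and 1.95% lower). Their median difference was -0.07, and that of all genes was 0.01. Dok2, a docking protein that damps signalling below cytokine receptors, rose (1.02 ± 0.15, 2.03-fold, adjusted p = 0.00999), the only one of 22 adaptors and proximal kinases, whose median was -0.09. It passed in all 8 fits that left out 1 array.

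None of 12 other ligands and related cytokines passed (2 had an unadjusted p under 0.05, median -0.01), whereas 1 passed when each gene was read at its probe set of largest variance. That variance was taken over both groups, so the choice favours probe sets that differ between them. No share of all genes is given for that reading or for the unadjusted threshold. The brightest of these ligands and cytokines were Osm, which encodes oncostatin M (-0.64, adjusted p = 0.149), and Il11 (-0.01). Csf2, Csf3, Il3 and Il6 all lay below the array median, with control means of 3.50 to 4.30. Of 19 related receptors 2 fell and none rose, with a median of -0.23: Il7r, the interleukin 7 receptor of lymphoid cells (-1.51 ± 0.30, adjusted p = 0.0344), and Ifnar1, a chain of the type I interferon receptor (-0.43 ± 0.09, adjusted p = 0.0427). Il7r passed only without control replicate 2 among the fits that left out 1 array, and Ifnar1 in none. With the replicate block 2 of these receptors rose, Il2rb and Il4ra, and 3 fell, Il13ra1 beside Il7r and Ifnar1. In that fit more probe sets passed of all those tested, 2.22% higher and 2.84% lower.

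Below the receptors, none of 10 JAK kinases and STAT factors passed (3 with an unadjusted p under 0.05, median -0.09), with Jak1 at -0.12 and Stat3 at -0.03 the brightest. For that unadjusted threshold no share of all genes is given. Jak3 is no partner of these receptors but of the common gamma chain. It alone among these JAK and STAT genes rose with the replicate block (difference 1.19, adjusted p = 0.0904 without it), against 2.22% of all probe sets. It was named after its value was seen. Of 14 feedback inhibitors Pias3, an inhibitor of STAT3, fell (-0.68 ± 0.13, adjusted p = 0.0309; median of the list 0.00). Of that list 2 passed with probe sets averaged per gene and 3 by the probe set of largest variance, a choice that favours probe sets differing between the groups. The STAT5 targets Cish (0.54) and Socs2 (0.46) and the STAT3 target Socs3 (-0.75) did not pass, and they too were named after their values were seen.

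Of 15 genes known to be induced by these factors, Id1, an inhibitor of basic helix-loop-helix factors, fell (-0.78 ± 0.16, adjusted p = 0.0368; median -0.13). With the replicate block Junb fell as well. Of 16 transcription factors that act on the receptor genes, Ets2 fell (-0.77 ± 0.11, adjusted p = 0.0104, median -0.05), and with the block Cebpd, Runx1 and Gata2 did too. With that block 2.84% of all probe sets were called lower. Ets2 passed in all 8 fits that left out 1 array, and Pias3 and Id1 in 2 each (Pias3 without experimental replicate 2 or 4, Id1 without control replicate 1 or experimental replicate 2).

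**Figure D4:**
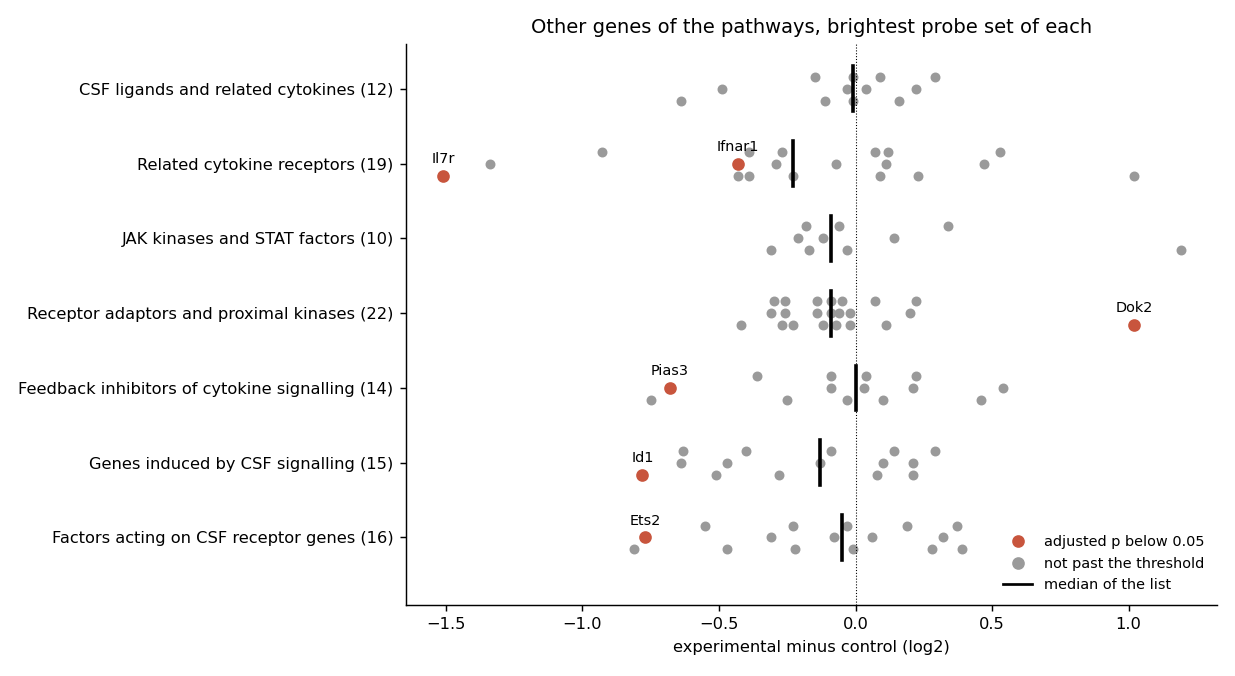
Experimental minus control (log2) of each measured gene of the 7 pathway lists, with the number of genes in brackets, genes past adjusted p 0.05 in red with their names, and a black line at each list's median. Dok2 alone lies past the threshold above 0, and the list medians lie between -0.23 and 0.00.

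Sorting and other cell types were read from marker genes. Itgam, which encodes Cd11b, was bright and overlapped between the groups (11.58 ± 0.07 and 11.54 ± 0.27, SD, n = 4; difference -0.04, adjusted p = 0.911). Of 10 marker lists, 4 had mean levels that did not overlap between the groups, all lower in experimental samples: mature neutrophils, B cells, dendritic cells and megakaryocytes (each with two-sided exact permutation p = 0.0286, adjusted p = 0.0714). B cell markers read 7.59 to 8.33 in controls and 6.56 to 7.33 in experimental arrays, and 4 of 9 fell: Cd79a (-1.57), Cd79b (-1.31), Ms4a1 (-2.82) and Blnk (-1.45). Ebf1 (-1.29; adjusted p = 0.0804, and 0.0124 with the replicate block), Cd22 (-0.78), Pax5 (-0.35), Vpreb1 (-0.08) and Ighm (0.11) did not pass. In the fits that left out 1 array, Cd79b lost its call without control replicate 1, 2 or 4, and Blnk without control replicate 2 or 4. Dendritic cell markers read 6.62 to 6.68 and 5.64 to 6.22, with 3 of 9 called lower, among them Siglech (-1.29, not past the threshold without control replicate 2). Bst2 (-0.24) and Flt3 (-0.39) did not pass, nor did Xcr1 (0.25) and Zbtb46 (0.26), which lay above 0. Megakaryocyte markers read 6.25 to 6.80 and 5.67 to 5.85, with 4 of 9 called lower, among them Pf4 (-1.49). Itga2b (-0.49, adjusted p = 0.0568, and 0.0357 with the replicate block) and Gp1bb (-0.41) did not pass. Gp9 (0.24) and Itgb3 (0.10) lay above 0 and did not pass. Of the 7 mature neutrophil markers only Clec4d was called lower (-1.71), by far the largest difference of that list. Of all genes, 1.95% were called lower. These lists separated the groups as Csf1, Csf3r and Csf2rb2 did, and their part in those differences was not tested.

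The other 6 lists overlapped. Eosinophil, basophil and mast cell markers, cells that use Csf2rb in the interleukin 5 receptor, read 7.08 to 7.46 in controls and 7.03 to 7.55 in experimental arrays. Of 9 measured, Epx (0.91) and Siglecf (1.28) rose, and Prg2 (-0.17) did not pass. The list median was -0.17, with 4 genes above 0 and 5 below. Ms4a2 (-0.77, adjusted p = 0.0558 in limma), Gata2 (-0.55) and Mcpt8 (-0.46) were lower without passing. Epx passed in all 8 fits that left out 1 array. Siglecf passed in 3 of 8, and lost its call without any one of the controls or experimental replicate 1 (adjusted p = 0.0261 to 0.0959). Stem and progenitor markers read 7.02 to 7.36 and 6.36 to 7.04, with Kit at -0.39, Cd34 at -0.47 and Flt3 at -0.39. Sox4 (-1.52, adjusted p = 0.0558 in limma, and 0.0102 with the replicate block) did not pass. That list had 1 gene above 0 and 7 below. T and NK cell markers read 6.97 to 8.20 and 7.19 to 8.29 (Cd3e 0.32, Cd3g 1.33, Cd3d -0.54), and erythroid markers 8.04 to 8.36 and 8.01 to 9.36 (Hba-a1 -0.01, Klf1 0.27, Epor 0.07). Nkg7 of the former (1.04, adjusted p = 0.0518 in limma, and 0.0343 with the replicate block) did not pass. Nor did Alas2 of the latter (1.10, adjusted p = 0.216, and 0.0342 with the block). The T and NK list had 3 genes above 0 and 4 below, and the erythroid list 7 and 1. Of the precursor list, Ms4a3 rose (0.83), with Elane at 0.26, Mpo at 0.27 and Prtn3 at 0.70. Ctsg (1.08, adjusted p = 0.119 in limma, and 0.0321 with the replicate block) did not pass. The precursor list had 6 genes above 0 and 3 below. Ms4a3 passed in 3 of the 8 fits that left out 1 array, those without control replicate 3, experimental replicate 2 or experimental replicate 3 (adjusted p = 0.0116 to 0.0938). Of the monocyte list, Ccr2 stood at -0.32, F13a1 at 0.19 and Cx3cr1 at -1.23, none of which passed.

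**Figure D5:**
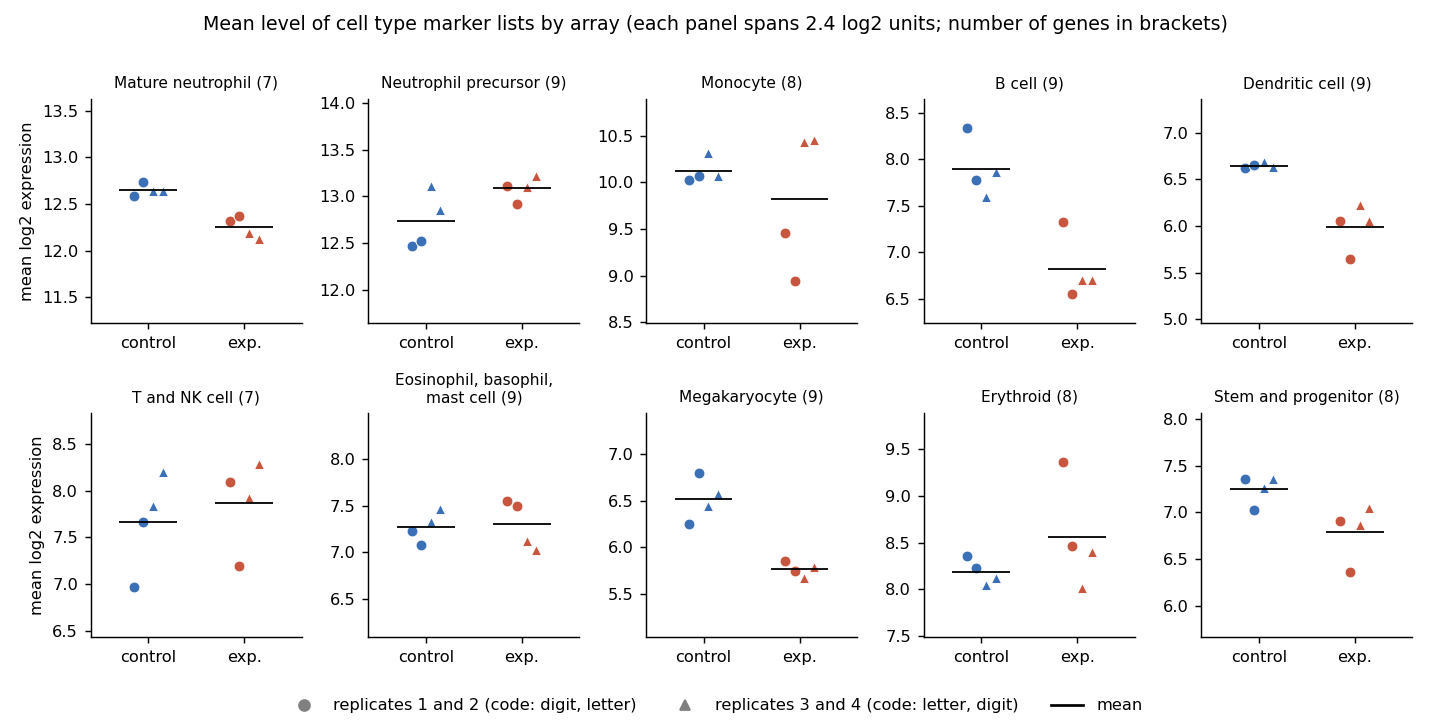
Mean log2 level of each of 10 marker lists in each array, with circles for replicates 1 and 2, triangles for replicates 3 and 4, lines at group means and the number of genes in brackets. Mature neutrophil, B cell, dendritic cell and megakaryocyte lists lie lower in all experimental arrays, and the monocyte list splits the experimental arrays by replicate.

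Among 8933 genes with a mean of at least 6, the patterns over the 8 arrays most like those of the genes that passed were the following, as a description in which genotype, code style and RNA quality are shared by all genes. For Csf3r they were Zfp729a (Pearson r = 0.985), Reps1 (0.980) and Pf4 (0.978), which encodes platelet factor 4. For Csf1 they were Arfrp1 (0.993), Prc1 (0.986), which acts in cytokinesis, and Arhgap11a (0.980). For Csf2rb2 they were the semaphorin gene Sema4a (0.980), Dhrs1 (0.978) and Plin5 (0.976), which coats lipid droplets.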

How the data were processed

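Biotin-labelled cRNA from 2.5 µg of total RNA per sample was hybridised to Affymetrix mouse arrays. The authors deposited log2 values per probe set, made with RMA per the submitters' processing notes, which give no version. RMA in its usual form corrects background, normalizes quantiles and summarises the probes of a set. It is not stated which arrays RMA took together. Array medians lay between 5.01 and 5.04.

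From these values, 45037 probe sets (45101 less 64 Affymetrix controls) were fitted with limma 3.58.1 in R 4.3.3 (lmFit, eBayes, a term for group alone) and called at a Benjamini-Hochberg adjusted p of 0.05. Genes of lists were read at their brightest probe set. The fit was also run on simulated arrays with independent normal noise. These lack the deviations that arrays of a code style share, so that check says nothing of their effect on the calls. With 4 arrays per group, their number limits the precision. Same-numbered arrays of the groups deviated together from their group means (correlations across probe sets of 0.20 to 0.26). The reported fit has no pairing by number. The fit with replicate number as a block is an alternative, and the calls it changed among the genes named are stated. Other numbers of the same code style correlated at 0.14 to 0.26. Sex was inferred from Xist and Eif2s3y (2 female controls, 3 female experimental samples).

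Genes named are every probe set of the 8 genes, up to 3 genes per direction past the threshold in each pathway list (or the 2 brightest), the 3 genes listed first in each marker list where measured, and the 3 most correlated genes. All other genes of the lists that are named were chosen after their values were seen. The genes and lists were chosen with earlier results of these data known. Promoter sequences are from RefSeq, GRCm38.p6.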

Additional observations from a re-analysis of the deposited data

Results flagged for a closer look

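Results are given here where the highest or lowest of 4 arrays stood apart from the other 3 by Dixon's criterion. Of 98 groups of 4 examined, 5 met it, and chance gives about 5%. None was a probe set of the 8 genes. The mean level of monocyte markers in control replicate 3 was 10.32, with the other controls at 10.03 to 10.07. Id1 was 8.46 in control replicate 1, with the others at 8.88 to 8.95. Cd209a, a dendritic cell marker, was 7.46 in control replicate 4, with the others at 8.82 to 8.94. Ccr9 was 4.39 in experimental replicate 2, with the others at 5.21 to 5.31, and Tubb1 was 5.35 in control replicate 1, with the others at 6.19 to 6.26.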

How the results depend on the processing

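Csf3r kept its direction and its call in all 18 alternatives. The count of probe sets of the 8 genes past the threshold, 3, was 2 to 3 with other scalings, filters, variance models, array weights and inferred sex as a block, 6 with the replicate block and 5 with code style as a block. It was 1 to 3 when an array was left out: 1 in the fits lacking control replicate 2, control replicate 3, experimental replicate 1 or experimental replicate 4. Csf1 lost its call in 7 of those 8 fits and Csf2rb2 in 4, with the direction kept. Over all probe sets the count was 1162; it was 2277 with the replicate block, 2582 with code style, 663 with inferred sex as a block, and 395 to 1744 without 1 array (466, 395, 738 and 421 without control replicates 1 to 4; 629, 1744 and 586 without experimental replicates 1, 2 and 4). Pathway genes numbered 6, then 9 with probe sets averaged per gene or with the probe set of largest variance (related receptors 2 and 1, adaptors 2 and 2, feedback inhibitors 2 and 3, induced genes 2 and 1, ligands 0 and 1, JAK and STAT genes 0 and 0, factors 1 and 1), 14 with the replicate block, 17 with code style, 2 with inferred sex, and 2 to 6 without 1 array (2 to 3 in each such fit except that without experimental replicate 2). The variance was taken over both groups, so choosing by it favours probe sets that differ between them. No share of all genes is given for these alternatives. Of all probe sets, 2.58% passed in the main fit, 5.06% with the replicate block, 5.73% with code style and 1.47% with inferred sex. Signs turned only for differences near 0 that never passed: Csf1 at 1425154_a_at (0.01 with median centring, 0.03 with quantile normalization, 0.02 with inferred sex, -0.05 to 0.05 without 1 array, turned in 4 of 8), Il6ra at 1422270_a_at (-0.15 to 0.04 without 1 array, turned without control replicate 1) and 1452416_at (-0.04 to 0.23, turned without control replicate 3), Il6ra by the mean of its probe sets (0.00), and Csf2ra at 1420704_at (-0.13 to 0.02, turned without control replicate 2). The replicate block changed the calls named for the beta chains. It also changed those of Il2rb, Il4ra, Il13ra1, Jak3, Junb, Cebpd, Runx1, Gata2, Ebf1, Itga2b, Ctsg, Nkg7, Alas2 and Sox4, and no other call among the genes named. Within a code style 2 arrays per group gave differences and no calls. The interaction with code style, for which alternatives were added after seeing the data, had no probe set of the 8 genes past the threshold in any of them, and 4 to 5 marker lists did not overlap.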
